A study of Caenorhabditis elegans with 55 samples.

Results

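Genes that were silent in wild type worms and expressed in a *csr-1* mutant at 25 C were examined in *Caenorhabditis elegans*. CSR-1 is an Argonaute protein, which binds short RNAs antisense to its target transcripts. It is made as a long isoform, CSR-1a, whose extra first exon is used mainly in the germline that makes sperm, and a short isoform, CSR-1b. Other Argonautes of the worm, among them WAGO-4 and WAGO-10, also bind short antisense RNAs, including RNAs that silence genes in the germline.

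The members were chosen by raw mRNA counts. A gene had to have at most 2 counts in each of 6 N2 libraries and at least 10 counts in each of 3 mutant libraries grown at 25 C. The GFP row and genes of several large families (collagens, C-type lectins, cytochromes P450, nuclear receptors and others) were dropped by name. Of 19391 rows present in both mRNA tables, 2354 met the N2 condition, 17 of those also met the mutant condition, and 12 gene IDs remained. The N2 and mutant 25 C counts therefore fixed the pattern and are given as a description. Counts in the mutant at 20 C and all small RNA values played no role in the choice.

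The mutant is strain JMC164, which carries GFP and FLAG tags inserted in *csr-1* exon 2 (tor67) and a stop codon, G120*, in the first exon (mg660), so that CSR-1b is the isoform left. The title of its mRNA samples names tor159 instead. N2, the Bristol wild type, has neither the tag nor the stop codon, so the effects of these changes cannot be told apart. Whole worms labelled as L4 larvae were grown at 20 C or 25 C, with 3 polyA mRNA libraries per strain and temperature. Small RNA came from 10 strains at 20 C, each with 2 immunoprecipitates (IP) of an Argonaute and 2 inputs, the total small RNA of the lysate. The strains were JMC101 (CSR-1 of both isoforms, tagged by tor67), JMC151 (CSR-1a, tagged in exon 1 by tor160), JMC164 (CSR-1b), JMC161 (the transgene *mgTi11*, which joins *rpl-28*, the first exon of CSR-1a and GFP, with *csr-1(tm892)* and *unc-119(ed3)*), and GR3035 and GR3039 (both labelled CSR-1a IPs). The *csr-1(mg657[G91R])* allele is in GR3039, while GR3035 has the reporters *pbs-5::mcherry* (*mgTi14*) and *rpn-2::gfp* (*mgIs75*). The other Argonautes were ALG-3 (JMC205, tor141), ALG-4 (JMC207, tor143) and WAGO-4 (JMC223, tor117), each with GFP and FLAG tags, and WAGO-10 (JMC248, tor162), with a FLAG tag. Their IPs are called by the Argonaute's name. The labels do not say whether replicates came from separate cultures, so p-values measure only the spread between these libraries, which may be technical.

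The mRNA libraries held 7457517 to 18775025 counts over the shared rows. GFP had 172 to 772 counts in the 6 mutant libraries and 0 or 1 in N2, as the labels of the strains imply. The *csr-1* gene had 2376, 1428 and 1206 counts in the mutant at 25 C, 1083, 4178 and 299 in the mutant at 20 C, 3783, 3230 and 4295 in N2 at 25 C and 1315, 1717 and 2849 in N2 at 20 C. A stop codon does not remove the reads, so these counts do not check the genotype. Mutant 20 C replicate 3 stood apart. Its correlations with the other libraries of its group, across genes on a log scale, were 0.953 and 0.946, against 0.984 to 0.996 for every other pair of replicates. In that library 33 listed sperm genes summed to 1400 CPM (counts scaled to 1000000 per library), against 5380 and 5730 CPM in the other mutant 20 C libraries.

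The 12 IDs hold 11 distinct sets of counts. WBGene00015888 and WBGene00015895 both carry the symbol C17C3.2 and have identical counts and small RNA values in every library, so they are described once. A RefSeq gene table of assembly WBcel235 lists C17C3.13 with the same length, 611 bp, on the same chromosome as C17C3.2, and these counts do not tell copies of the gene apart. Of the 12 IDs, 11 were found in RefSeq, all as protein-coding genes. WBGene00022511 has no symbol in the name table and was not found there.

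Among genes with no assigned role here, C17C3.2 had 217, 258 and 294 counts in the mutant at 25 C, 2, 1 and 4 in the mutant at 20 C, and 0 in all 6 N2 libraries. T15D6.10, named *gtnt-45* in RefSeq, had 106, 114 and 143 counts in the mutant at 25 C, 8, 2 and 24 in the mutant at 20 C, 1, 0 and 0 in N2 at 25 C, and 0 in each N2 library at 20 C. In the mutant, both genes had reads in every library at both temperatures. Their 25 C and 20 C counts did not overlap, which held for every other member as well. The rule set a minimum for the mutant 25 C counts, so this was partly fixed beforehand and nothing is read from it. F40G12.5 had 26, 50 and 29 counts in the mutant at 25 C, 0, 1 and 3 in the mutant at 20 C, 1, 1 and 1 in N2 at 25 C and 2, 0 and 2 in N2 at 20 C. Y38E10A.9 had 19, 17 and 20 counts in the mutant at 25 C, 0 in each mutant library at 20 C, 1, 2 and 1 in N2 at 25 C and 0 in each N2 library at 20 C. WBGene00022511 had 19, 27 and 24 counts in the mutant at 25 C, 0, 4 and 0 in the mutant at 20 C, 2, 2 and 0 in N2 at 25 C and 0, 2 and 1 in N2 at 20 C. In these 3 genes the mutant 20 C counts were at most 2, as in N2, except for a 3 in replicate 3 for F40G12.5 and a 4 in replicate 2 for WBGene00022511.

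The members with a known kind of protein are of unlike families. *irld-66* belongs to the genes for proteins with an L domain like that of the insulin and EGF receptors. It had 75, 73 and 110 counts in the mutant at 25 C, 0, 0 and 2 in the mutant at 20 C, 1, 0 and 1 in N2 at 25 C and 2, 0 and 0 in N2 at 20 C. *fbxa-165* encodes an F-box protein, a class that selects substrates for ubiquitin ligases. Its counts were 23, 56 and 36 in the mutant at 25 C, 0, 0 and 3 in the mutant at 20 C, 2, 1 and 1 in N2 at 25 C, and 1 in each N2 library at 20 C. Replicate 2 was the highest mutant 25 C library for this gene and for F40G12.5, while replicate 3 was the highest for C17C3.2, T15D6.10 and *irld-66*.

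*mpst-2* encodes a mercaptopyruvate sulfurtransferase, an enzyme of cysteine breakdown. It had 17, 20 and 27 counts in the mutant at 25 C, 0, 0 and 1 in the mutant at 20 C, 0, 2 and 0 in N2 at 25 C and 0, 2 and 1 in N2 at 20 C. *srh-51*, a serpentine chemoreceptor gene of class H, had 13, 22 and 21 counts in the mutant at 25 C, 0 in each mutant library at 20 C, 0 in each N2 library at 25 C and 0, 0 and 1 in N2 at 20 C. *ceh-81*, a homeobox gene, had 19, 16 and 14 counts in the mutant at 25 C, 0 in each mutant library at 20 C, 0, 0 and 1 in N2 at 25 C and 0 in each N2 library at 20 C. *lgc-52*, a gene of the ligand-gated ion channel family, had 13, 11 and 16 counts in the mutant at 25 C, 1, 5 and 0 in the mutant at 20 C, 1, 1 and 0 in N2 at 25 C and 2, 1 and 0 in N2 at 20 C. These 4 genes lie near the threshold of 10 counts, and *lgc-52* lies nearest to it.

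**Figure D1:**
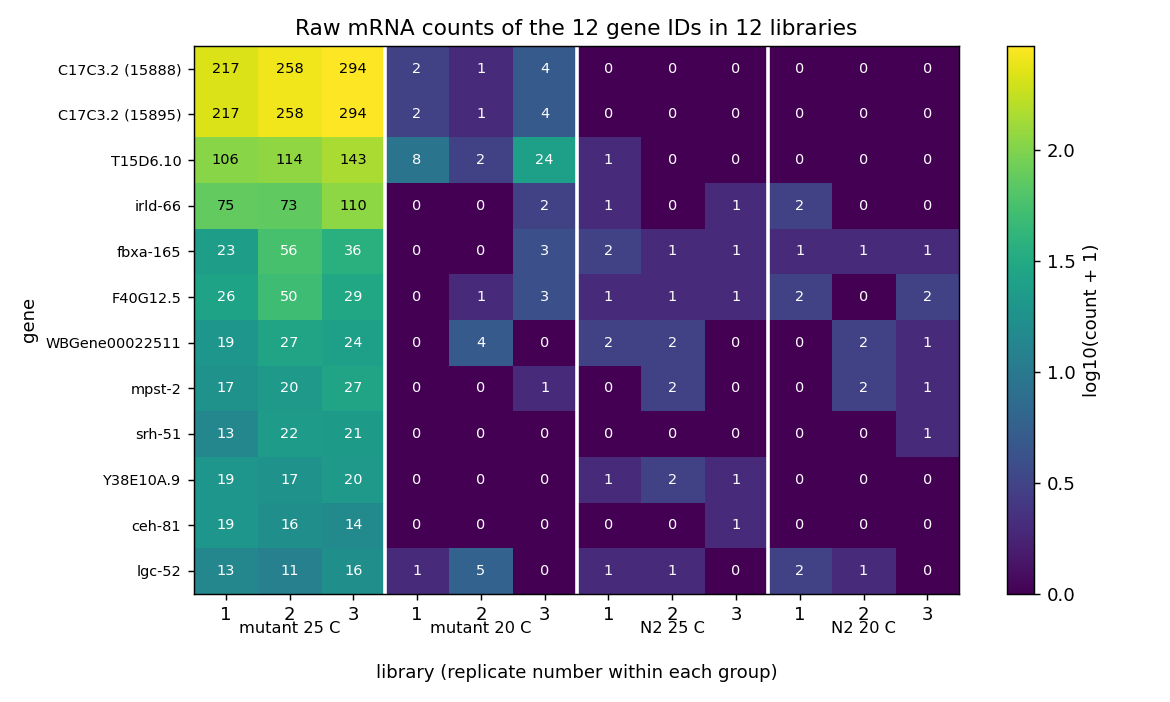
Raw mRNA counts of the 12 gene IDs (rows) in the 12 libraries (columns, 3 replicates per group), with the count printed in each cell and the colour giving log10(count + 1). The mutant 25 C columns run from 11 to 294 counts, while the highest count in the mutant 20 C columns is 24 and the highest in N2 is 2.

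Depth bears on how firmly a gene of 11 to 27 counts can be called silent elsewhere. A count of 0 in a group allows up to 3 counts, and these floors and the intervals below cover counting error only. Relative to that floor over the mutant 20 C group, CPM values in the mutant at 25 C were at least 19.8-fold higher for *srh-51*, at least 19.8-fold higher for Y38E10A.9 and at least 17.3-fold higher for *ceh-81*. Summed over libraries and scaled to their totals, the ratio of mutant 25 C to mutant 20 C was 117 for C17C3.2 (exact 95% interval 56.3 to 291), 11.3 for T15D6.10 (7.97 to 16.6) and 7.08 for *lgc-52* (2.98 to 20.4). It was 137 for *irld-66* (37.5 to 1137), on 2 counts in the mutant at 20 C. The intervals of C17C3.2 and T15D6.10 do not overlap, with all libraries or without any 1 mutant 20 C library. Without any 1 mutant 20 C library, the ratios of C17C3.2, *lgc-52* and *irld-66* stayed inside their intervals where a ratio could be formed. That of T15D6.10 did not. Without replicate 3, which held 24 of its 34 mutant 20 C counts, the ratio of T15D6.10 was 28.7, and without replicate 2 it was 5.63. For C17C3.2 it was 203 without replicate 3 and 63.6 without replicate 2. The ratio of *lgc-52* was 19.9 without replicate 2, on 1 count. Both counts of *irld-66* came from replicate 3. Without that library its CPM value was at least 68.0-fold higher in the mutant at 25 C, and without replicate 2 the ratio was 64. Without replicate 2 the bounds for *srh-51*, Y38E10A.9 and *ceh-81* were 9.26, 9.26 and 8.11.

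Just inside the threshold, the lowest mutant 25 C counts were 11 for *lgc-52*, 13 for *srh-51* and 14 for *ceh-81*. Just outside it, 12 IDs had a lowest mutant count of 7 to 9, among them *sra-30* (18, 9 and 15 counts in the mutant at 25 C) and *oac-45* (12, 9 and 15). On the N2 side, 7 IDs missed with a highest N2 count of 3, among them C23G10.11 (38, 76 and 50 counts in the mutant at 25 C) and *fbxa-164* (32, 25 and 17). Of the genes dropped by name, *nhr-223*, a nuclear receptor gene, had 78, 77 and 117 counts in the mutant at 25 C, and *clec-15*, a C-type lectin gene listed under 2 IDs with identical counts, had 56, 110 and 52. Under the same rule with the mutant 20 C libraries in place of those at 25 C, 2 genes remained, against 12. With the strains exchanged, 14 genes had at most 2 counts in all 6 mutant libraries and at least 10 in each N2 library at 25 C, so silent-to-on genes were found in both directions.

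The first question was how much of the expression was present in the mutant at 20 C, in libraries that the rule did not use. Summed over the 11 distinct genes, counts were 547, 664 and 734 in the mutant at 25 C, 11, 13 and 37 in the mutant at 20 C, 9, 9 and 5 in N2 at 25 C and 7, 6 and 6 in N2 at 20 C. Per library total these sums were 1.48, 0.692 and 4.10 CPM in the mutant at 20 C, 0.834, 0.865 and 0.435 CPM in N2 at 25 C and 0.660, 0.499 and 0.520 CPM in N2 at 20 C. On that scale mutant 20 C replicate 2, the deepest library, lay within the N2 values, which the rule had limited, and the other 2 lay above them. T15D6.10 supplied 8, 2 and 24 of them, and the largest sum came from replicate 3, the library that stood apart. In that library 6 of 11 genes had a count, against 3 and 5 in the other mutant 20 C libraries and 4 to 7 in N2.

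Between the mutant and N2 at 20 C, 0 of the 12 IDs passed edgeR's quasi-likelihood test at a Benjamini-Hochberg adjusted p under 0.05, 3 had an unadjusted p under 0.05, and DESeq2 called 3. Over all 14800 genes tested, 1.95% were called higher in the mutant and 5.16% lower. With the 6 libraries of this comparison alone, none of the 12 IDs had enough counts to be tested, and the rule limited the N2 side. The count of 0 was therefore largely fixed beforehand, and nothing is read from it. T15D6.10 was nearest to the threshold, with 1.28 ± 1.29 CPM in the mutant at 20 C and 0 in N2 at 20 C (SD, n = 3 each) and an edgeR adjusted p of 0.0577. Its adjusted p was 0.11 without mutant 20 C replicate 1, 0.00674 without replicate 2 and 0.0322 without replicate 3, where 3053 genes were called higher in place of 289. C17C3.2 had 0.255 ± 0.195 CPM in the mutant at 20 C and 0 in N2 at 20 C (SD, n = 3 each), with adjusted p values of 0.137 by edgeR and 0.0483 by DESeq2. The 3 IDs that DESeq2 called were T15D6.10 and both IDs of C17C3.2. The other 9 genes had edgeR adjusted p values of 0.5 or more.

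Between the mutant at 25 C and at 20 C, all 12 IDs were called higher by edgeR, where 26.8% of genes were. Between the mutant and N2 at 25 C, all 12 were also called higher, where 17.4% of genes were. The rule fixed the 25 C side of the comparison of temperatures and both sides of the comparison with N2, so nothing is read from either count.

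Stage markers differed between the temperatures in both strains. A list of 20 genes of the moulting cycle summed to 285 to 475 CPM in the mutant at 25 C, 5350 to 6690 CPM in the mutant at 20 C, 358 to 422 CPM in N2 at 25 C and 5190 to 5620 CPM in N2 at 20 C, with none at 0 in any group. The 6 vitellogenin genes, which make yolk in the adult intestine, summed to 14100 to 19700 CPM in the mutant at 25 C, 506 to 1700 CPM in the mutant at 20 C, 18100 to 26300 CPM in N2 at 25 C and 870 to 1570 CPM in N2 at 20 C. Moulting and yolk markers were thus far apart between temperatures, and the summed levels of the strains at 25 C overlapped in both. At 25 C edgeR called 2 of the 6 vitellogenin genes lower in the mutant and 0 higher. Of the 20 moulting genes it called 3 higher and 1 lower, where 17.4% and 11.2% of all genes were. Summed oocyte markers did not overlap between the strains at 25 C. The 11 listed genes summed to 2310 to 3920 CPM in the mutant and 4130 to 6870 CPM in N2, with none at 0. Of these 11, edgeR called 0 higher and 0 lower in the mutant, or 6 lower without mutant 20 C replicate 3. The 33 sperm genes summed to 1480 to 1950 CPM in the mutant at 25 C and 3060 to 3230 CPM in N2 at 25 C, where 2 and 1 of them were at 0 (*msp-31* and *msp-45* in the mutant, *msp-31* in N2). Of 30 sperm genes tested, edgeR called 6 lower in the mutant at 25 C and 0 higher. The 10 male genes summed to 6.0 to 9.05 CPM in the mutant at 25 C and 18.1 to 19.7 CPM in N2 at 25 C, and to 13.9 to 15.3 CPM in the mutant at 20 C and 62.5 to 74.9 CPM in N2 at 20 C. None was at 0, and the strains did not overlap at either temperature. Of 9 tested, edgeR called 4 lower in the mutant at 25 C and 9 lower in the mutant at 20 C. The part of these markers in the members' expression was not tested. In bulk worms, fewer cells of a type and less RNA per cell cannot be told apart.

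The genes beside the members were compared between the mutant and N2 at 25 C, since neighbours were not used by the rule. In RefSeq order, 60 distinct genes were among the 3 nearest on either side of a member that the mRNA tables also list, none of them a member, and 28 had enough counts to be tested. edgeR called 7 of these 28 higher in the mutant (25%, against 17.4% of all genes) and 3 lower (11.2% of all genes were). The median log2 fold change of the 28 was 0.54, against 0.05 over all genes tested. Among the 7, at least *fbxa-163*, *fbxa-164* and *irld-65* passed the filter on low counts through the mutant 25 C group alone. Their calls were therefore largely fixed beforehand. Beside *fbxa-165* all 4 tested neighbours rose, *fbxa-163* and *fbxa-164* among them. Beside the other members 3 of 24 did (12.5%), *irld-65* among them. Nothing is read from this contrast. Without mutant 20 C replicate 3, the library that stood apart, 11 neighbours were called higher and 8 lower, where 26.1% and 23.7% of all genes were.

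All 4 risen neighbours of *fbxa-165* are F-box genes of its own family. *fbxa-164* had 2.20 CPM in the mutant at 25 C against 0.0962 CPM in N2 at 25 C, with 32, 25 and 17 counts against 0, 3 and 0. Its log2 fold change was 4.44 ± 0.75 (SE, n = 3 each; edgeR adjusted p = 0.00252). *fbxa-158* had 9.95 CPM in the mutant against 2.35 CPM in N2 (log2 2.1 ± 0.30, adjusted p = 0.000528), *fbxa-166* 17.7 against 4.66 CPM (1.95 ± 0.43, adjusted p = 0.00724), and *fbxa-163* 2.64 against 0.947 CPM (1.49 ± 0.38, adjusted p = 0.0139). For each of these 4 genes the mutant 25 C counts lay above all N2 25 C counts, but the genes were named because they were called, so this is no separate result. Unlike *fbxa-165*, 3 of them had counts well above 2 in N2 at 25 C, 24 to 29 for *fbxa-158*, 7 to 14 for *fbxa-163* and 47 to 56 for *fbxa-166*.

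*irld-65* lies next to *irld-66* in RefSeq order. It had 135, 136 and 235 counts in the mutant at 25 C, 0, 2 and 6 in the mutant at 20 C, 5, 1 and 2 in N2 at 25 C and 2, 5 and 3 in N2 at 20 C. This is the pattern of *irld-66* at a higher count, and N2 counts of up to 5 kept *irld-65* out of the list. Its log2 fold change between the mutant and N2 at 25 C was 5.95 ± 0.66 (SE, n = 3 each; edgeR adjusted p = 9.26e-05). Neighbouring genes of 1 family may share reads, and the handling of reads that match more than 1 gene is not given in the sources used here. The values of the *irld* and *fbxa* neighbours are uncertain to that extent. The remaining risen neighbours were *btb-9*, beside *ceh-81* (log2 1.15 ± 0.27, adjusted p = 0.00926), and *pnk-1*, beside *srh-51* (0.78 ± 0.19, adjusted p = 0.0112). The 3 that fell were *lips-15* near Y38E10A.9 (log2 -2.95 ± 0.55), *nspa-2* next to *mpst-2* (-2.25 ± 0.74) and *pkd-2* next to *lgc-52* (-1.33 ± 0.42). Of the 5 tested neighbours of C17C3.2, C17C3.1 had the smallest edgeR adjusted p, 0.059, with a log2 fold change of -0.39 ± 0.14.

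**Figure D2:**
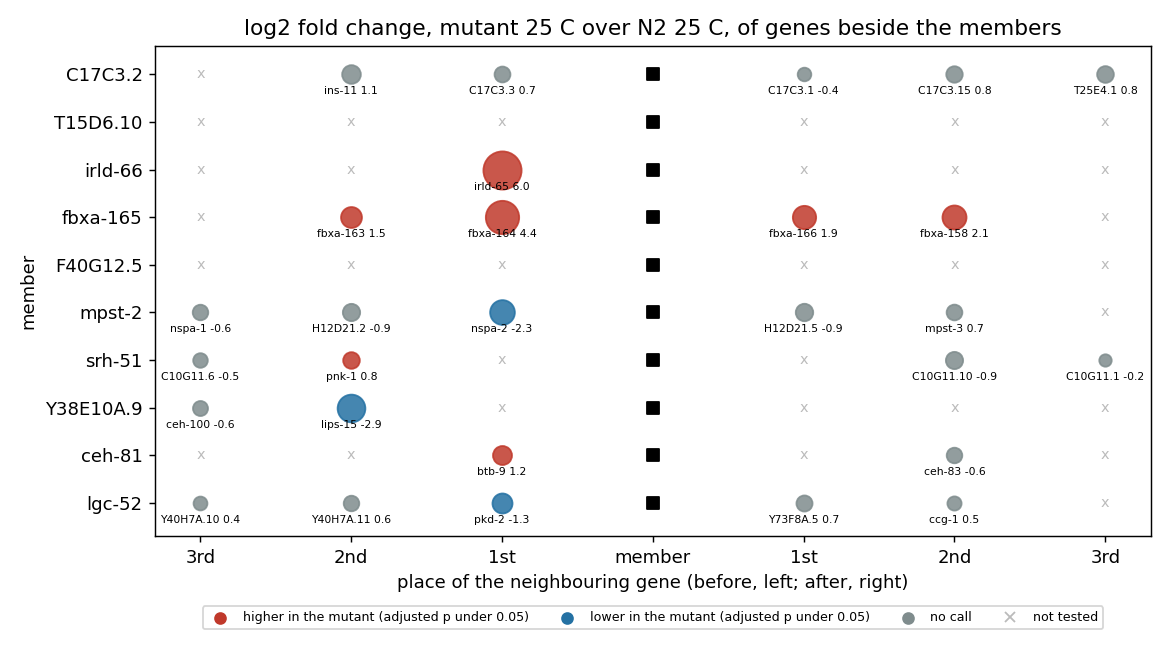
Up to 3 neighbouring genes on either side of each member that RefSeq lists, in the order of the assembly, with genes not in the mRNA tables skipped. Dot area grows with the size of the log2 fold change of the mutant over N2 at 25 C, which is printed under each dot, and colour gives the edgeR call; red dots stand beside *fbxa-165*, *irld-66*, *srh-51* and *ceh-81*.

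The families of the members differed in how many of their other genes were called between the mutant and N2 at 25 C. Of 111 other *fbxa* genes tested, 48 rose (43.2%) and 3 fell, with a median log2 fold change of 0.79. Without mutant 20 C replicate 3, 65 rose and 10 fell, where 26.1% of all genes rose. Among the 48, at least *fbxa-163*, *fbxa-164*, *fbxa-172* and *fbxa-185* passed the filter on low counts through the mutant 25 C group alone. Their calls were largely fixed beforehand, and how many others share this limit was not counted. The *fbxa* values, and those of the wider list that holds these genes, are therefore a description only. In a wider list of F-box and MATH-BTB genes, which also serve ubiquitin ligases, 69 of 188 rose (36.7%) and 9 fell, or 96 and 28 without that library. Of 36 other *lgc* genes 7 rose (19.4%) and 1 fell. Of 12 other *irld* genes, *irld-65* was the single one called. Of 8 other *srh* genes 2 rose, *srh-2* (4.65 CPM in the mutant and 1.6 CPM in N2) and *srh-48* (3.38 CPM in the mutant and 1.43 CPM in N2). In a list of 92 tested chemoreceptor genes of all classes but *str*, 22 rose (23.9%) and 11 fell, while DESeq2 called 53 higher and edgeR 34 without that library.

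In the *mpst* and *ceh* families few other genes were called. The rule chose the members for their rise, so nothing is read from a contrast with their families. The single *mpst* gene called among 5 (6 IDs, with *mpst-6* listed under 2 of them with identical counts) was *mpst-1*, which fell (37.1 CPM in the mutant and 48.8 CPM in N2, log2 -0.37 ± 0.13, edgeR adjusted p = 0.0432). Of 39 other *ceh* genes, 3 were called and all 3 fell, where 11.2% of all genes fell. Beside these, 23 of 31 tested genes of the intracellular pathogen response rose (74.2%, median log2 fold change 1.45). These genes, the *pals* genes among them, are induced by microsporidia and viruses in this worm. The list holds *fbxa-158* and no member. Of 11 heat shock genes 9 rose (81.8%) and 1 fell, while their summed levels overlapped, at 1330 to 1410 CPM in the mutant at 25 C and 1170 to 1440 CPM in N2 at 25 C. Summed levels of the pathogen response list were 415 to 476 CPM in the mutant at 25 C, 162 to 278 CPM in the mutant at 20 C, 173 to 196 CPM in N2 at 25 C and 198 to 226 CPM in N2 at 20 C.

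**Figure D3:**
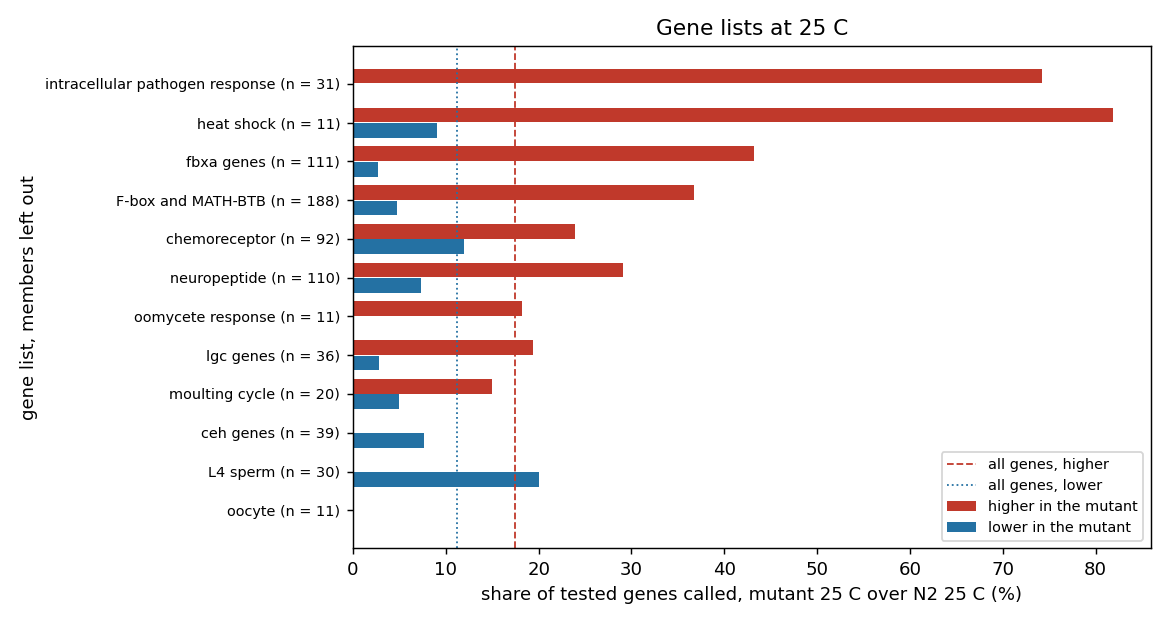
Share of tested genes that edgeR called higher (red bars) or lower (blue bars) in the mutant than in N2 at 25 C, for gene lists and for families of the members, with the members left out and the number tested in brackets. The dashed red and dotted blue lines are the shares over all genes, 17.4% and 11.2%; the pathogen response and heat shock bars are the longest of those drawn.

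The second question was whether small RNAs antisense to the members were present, and whether any Argonaute bound them. Values are RPM, reads scaled to 1000000 per library, and all small RNA libraries came from worms at 20 C. At their estimated depths of 325376 to 30284492 reads, 1 read was worth 0.033 to 3.07 RPM. C17C3.2 was the member with antisense RNA in quantity. It had 21.9 to 48.5 RPM across the 20 inputs (median 30.2), with at least 10 reads in each. In each strain this placed it at percentile 89.7 to 95.6 of the antisense levels of coding genes. The mutant JMC164 was not apart in this, with 28.8 and 32.3 RPM in its inputs, inside the range of the other 18 inputs.

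The remaining members had few antisense reads. *fbxa-165* had a median of 2.34 RPM over the 20 inputs (0.844 to 4.61) and WBGene00022511 a median of 2.65 RPM (0.818 to 4.35), and both had at least 10 reads in 13 of 20 inputs. *lgc-52* had a median of 0.856 RPM and T15D6.10 of 0.511 RPM, with at least 10 reads in 6 and 3 inputs. In the other 6 genes the highest input value was 3.07 RPM, which for *mpst-2* is 1 read of the shallowest library. Y38E10A.9 had a read in 3 of 20 inputs and *srh-51* in 8. These 6 genes stayed under the read minimum in every strain, so their IPs were not tested against input. The most reads among them were those of *irld-66*. It had 0.738 and 1.53 RPM in the JMC164 IP against 0.324 and 0.355 RPM in input, and 0.564 and 1.4 RPM in the JMC161 IP against 0.160 and 0 RPM in input. In both strains the IP values lay above the input values, on 21.5, 7.9, 7.1 and 13.1 estimated IP reads. In no other strain did both *irld-66* IP values lie above both inputs. JMC101 had 0.596 and 0.448 RPM in the IP against 0.519 and 0.502 RPM in input. GR3039 had 0 RPM in both IPs against 0.179 and 0.146 RPM in input. The gene was tested in none, and nothing is read from these values. JMC164 inputs lay within the range of the other strains for every member with antisense reads.

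No member was called enriched in any of the 10 IPs. Testing required at least 10 estimated reads in at least 2 libraries of a strain, which left 2 to 6 member IDs per IP and 29 tests with C17C3.2 counted once. The limma test on log2(RPM + 1) at an adjusted p under 0.05, with a log2 fold change of 1 or more, called 0 enriched, while 1 had a positive change with an unadjusted p under 0.05. That was *lgc-52* in the CSR-1 IP of JMC101 (log2 0.88 ± 0.33, limma adjusted p = 0.0533). Without JMC101 input replicate 1 it was called enriched (log2 1.25), and in the JMC161 IP it was called without JMC161 input replicate 1 (log2 1.26). In JMC101, and in JMC161 without that input, *lgc-52* met the read minimum through the IPs alone. The direction of these changes was therefore largely fixed beforehand, and nothing is read from them. Antisense coding features as a whole were called enriched in 54.4% of cases for JMC101, 42.5% for JMC151, 50.6% for JMC164, 33.1% for GR3035, 16.7% for GR3039 and 55.8% for JMC161. They were enriched in 28.8% of cases for ALG-3, 33.1% for ALG-4, 68% for WAGO-4 and 10.4% for WAGO-10. Apart from C17C3.2, the tested members had few RPM, and adding 1 RPM before the log understates their change. The mean of *lgc-52*, for example, was 1.92 RPM in the JMC101 IP and 0.64 RPM in its input. The 0 is therefore not read as a lack of binding.

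Antisense RNAs of C17C3.2 were lower in the IP than in the input of every strain. In the CSR-1b IP of JMC164 they had 2.95 and 1.85 RPM, against 28.8 and 32.3 RPM in its inputs (log2 -3.23 ± 0.28, limma adjusted p = 3.9e-05, where 19.4% of antisense features were called depleted). In the CSR-1 IP of JMC101 they had 3.33 and 5.60 RPM, against 44.8 and 48.5 RPM in input (-3.15 ± 0.28, adjusted p = 0.000123, where 19.4% were). In the CSR-1a IP of JMC151 they had 3.23 and 5.12 RPM, against 31.5 and 29.6 RPM in input (-2.63 ± 0.56, adjusted p = 8.39e-05, where 15.4% were). Thus neither isoform's IP held these RNAs at the level of its input, and the IP and input values did not overlap in any of these strains. The JMC151 value rests on 5 and 8 estimated IP reads, and without either of its inputs the gene had too few reads to be tested. There the read minimum was met through the inputs alone, so the direction of that call was largely fixed beforehand.

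The other IPs labelled CSR-1a differed in depth of depletion. JMC161 is CSR-1a in the genotype and in the data table, but its sample titles say CSR-1. JMC161 had 3.24 and 2.46 RPM in the IP against 30.9 and 32.6 RPM in input (log2 -3.09 ± 0.22, limma adjusted p = 8.34e-06, where 13.3% of antisense features were called depleted). GR3035 had 7.76 and 9.11 RPM in the IP against 27.1 and 34.3 RPM in input (-1.74 ± 0.18, adjusted p = 0.000242, where 11.6% were). GR3039 had 12.8 and 9.25 RPM in the IP against 29.1 and 23.7 RPM in input (-1.19 ± 0.26, adjusted p = 0.00352, where 6.8% were). Without GR3039 IP replicate 2 the change in that strain was -0.98, short of the fold that a call needed. Over all antisense coding features tested, the median log2 fold change was 1.405 in JMC161, 0.529 in GR3035 and 0.168 in GR3039. The difference between these strains was not tested.

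ALG-3 and ALG-4, which bind another class of antisense RNAs during sperm formation, gave IP values in RPM close to those of JMC101, JMC151 and JMC164. The ALG-3 IP had 2.43 and 2.58 RPM against 23.5 and 25.4 RPM in input (log2 -2.86 ± 0.12, limma adjusted p = 5.3e-08, where 30.9% of antisense features were called depleted). The ALG-4 IP had 2.5 and 2.66 RPM against 23.5 and 21.9 RPM in input (-2.73 ± 0.18, adjusted p = 2.36e-05, where 33.5% were). The WAGO IPs held more in RPM. The median log2 fold change of all antisense coding features tested was 3.179 in WAGO-4, -0.187 in WAGO-10, -0.415 in ALG-3 and -0.3 in ALG-4. It was 1.404 in JMC101, 1.029 in JMC151 and 1.08 in JMC164. RPM and log2 fold changes of 1 gene are therefore not directly comparable between IPs. The WAGO-4 IP had 22.1 and 20.0 RPM against 31.4 and 46.1 RPM in input (-0.82 ± 0.30, adjusted p = 0.0522), and the WAGO-10 IP had 17.6 and 13.1 RPM against 26.2 and 34.8 RPM in input (-0.95 ± 0.26, adjusted p = 0.0205). Neither reached the log2 change of -1 that a call needed, except that WAGO-4 did without input replicate 1 (-1.09) and with TMM factors (-2.22), and WAGO-10 without input replicate 1 or IP replicate 1 (-1.15 each). Without WAGO-10 input replicate 2 the adjusted p was 0.15. In all, 5.26% and 8.95% of antisense features were called depleted in WAGO-4 and WAGO-10. Ranked among all antisense coding features of an IP by log2 fold change, C17C3.2 stood at percentile 1.91 in JMC164, the lowest of the 10, and at percentile 11.3 in WAGO-10, the highest.

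**Figure D4:**
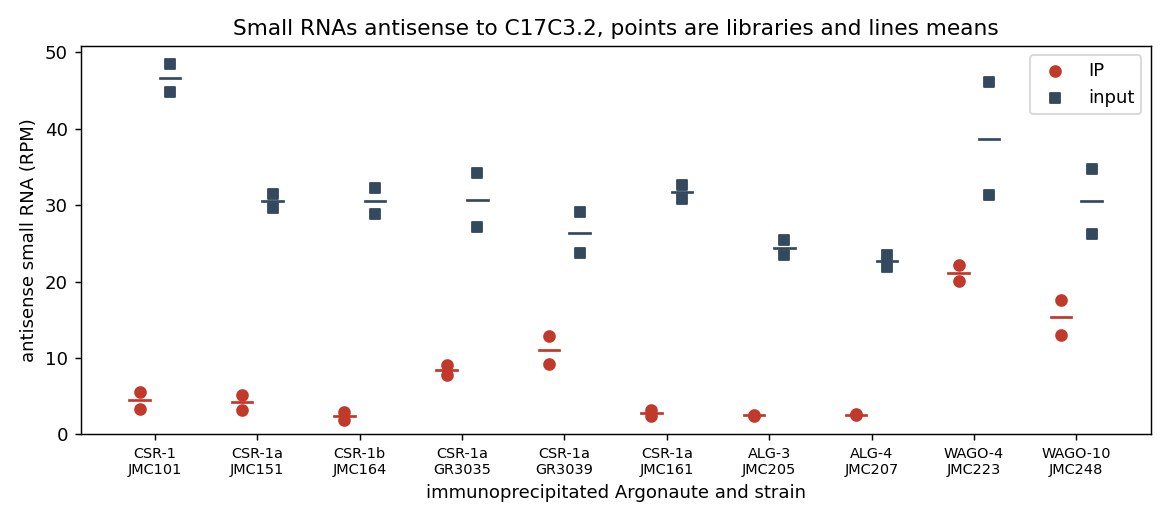
RPM of small RNAs antisense to C17C3.2 in each IP library (red circles) and input library (dark squares) of the 10 strains, with lines at the means of 2 libraries. The IP points lie below the input points in every strain, from 1.85 RPM in JMC164 to 22.1 RPM in WAGO-4, while the inputs lie between 21.9 and 48.5 RPM.

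Among the other members, *fbxa-165* was called depleted in the IPs of ALG-3, ALG-4 and WAGO-10, where 30.9%, 33.5% and 8.95% of antisense features were. It had 0.317 and 0.373 RPM in the ALG-4 IP against 4.60 and 4.27 RPM in input (log2 -2.01 ± 0.18, limma adjusted p = 5.63e-05). It had 0.428 and 0.550 RPM in the ALG-3 IP against 3.30 and 3.54 RPM in input (-1.57 ± 0.17, adjusted p = 3.65e-05). In the WAGO-10 IP it had 0.642 and 0.443 RPM against 2.29 and 3.07 RPM in input (-1.25 ± 0.32, adjusted p = 0.017). WBGene00022511 was depleted in ALG-3 (log2 -1.56 ± 0.18) and ALG-4 (-1.40 ± 0.20), with no call in the other 4 IPs where it was tested. The *fbxa-165* values rest on 1 to 6 estimated IP reads, and with either input of a strain left out too few reads remained to test it, nor WBGene00022511 in ALG-3. In these cases the read minimum was met through the inputs alone. A depleted call was therefore largely fixed beforehand, and nothing is read from it. Without GR3035 input replicate 1, *fbxa-165* was also called depleted in that strain (-1.04, adjusted p = 0.0246). *lgc-52*, tested in 6 IPs, and T15D6.10, tested in 2, were called in none by limma; their unadjusted p was under 0.05 in 1 and 0 of these.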

How the data were processed

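The 2 deposited mRNA tables hold raw read counts per gene, whole numbers with no normalization. The 10 small RNA tables deposited by the authors hold RPM, read from the values: each column sums to 1000000 once an offset of 0.01 is taken off. The submitters' processing notes name cutadapt, STAR, FastQC and DESeq2; the genome build, the annotation and the role and version of each tool were not given in the sources used here. Coordinates are left out for that reason. Per the labels' protocols, mRNA libraries were directional and polyA selected, and small RNA was treated with a 5' polyphosphatase.

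Members and gene lists were chosen with earlier results of these data known. All 12 mRNA libraries (3 per group) were fitted together with edgeR 4.0.16 (R 4.3.3; TMM factors, the filterByExpr filter on low counts, quasi-likelihood test), with DESeq2 1.42.0 as an alternative. A test used all 14800 genes that passed the filter, and all 12 IDs passed, though through the mutant 25 C libraries alone. Each IP was compared with its inputs by limma 3.58.1 (log2(RPM + 1), with a trend in the variance), since the tables hold no counts. Fold changes on that scale understate the change of low features. Depth was estimated from the RPM of the commonest low value, taken as 1 read, and a feature needed 10 reads in 2 libraries. Reads of no feature, 2.6% to 10.8% of a small RNA library, were left out. Calls needed a Benjamini-Hochberg adjusted p under 0.05, and for small RNA also a log2 change of 1. Intervals are exact, at 95%. The scripts were tested on simulated data. Replicate numbers did not pair the mRNA libraries (correlations of deviations -0.405 to 0.323). IP and input of a number share a lysate per the labels, with correlations of -0.015 to 0.41.

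The 3 GR3043 inputs are not analysed here. Every member is named; other genes are named as neighbours within 3 places, as family members called, or as nearest to the thresholds, and neighbours and families were chosen after their values were seen. For 3 strains (GR3035, GR3039 and JMC248) the labels name GFP beads for the IP, but their genotypes put no GFP on the Argonaute.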

Additional observations from a re-analysis of the deposited data

Results flagged for a closer look

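WBGene00022511 gave reads in a measurement that the comparisons above do not use, small RNA from the sense strand of the genes. Its sense small RNA averaged 224.9 RPM over the 20 inputs (157 to 292 RPM in single libraries), far above the limit of 3 reads in each library. The IPs held 10 to 109 RPM, and each IP library lay below both inputs of its own strain. In the mutant JMC164 the inputs had 251 and 259 RPM, within the range of the other strains. No other member exceeded that limit in all 20 inputs on the sense strand. The next by mean was *lgc-52*, with 2.08 RPM. What these sense reads are was not tested.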

How the results depend on the processing

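The number of members depended on the thresholds. It was 55 at a minimum of 5 counts, 6 at a minimum of 20, 2 with at most 0 counts in N2, 46 with at most 5, and 5 with counts scaled to the mean library total. Leaving out single libraries gave 12 to 18, with all 12 kept each time. Between the mutant and N2 at 20 C, DESeq2 called 3 member IDs, and leaving out single libraries gave 0 to 1. Counts for the mutant at 25 C were 12 in both contrasts without any single library. In the IPs, no direction reversed for C17C3.2 under 88 alternatives (log2 -3.65 to -0.55). With no filter on low values its adjusted p was above 0.05 in JMC151 and WAGO-10 (0.0799 and 0.0635), and it fell under 0.05 in WAGO-4 with a pseudocount of 5 RPM or TMM factors (0.0334 and 0.00543). Enriched members numbered 0 to 1 without single libraries in JMC101 and in JMC161. Depleted IDs without single libraries numbered 2 to 3 in GR3035, 0 to 2 in GR3039, JMC151 and JMC223, 2 to 4 in JMC205, 3 to 4 in JMC207 and 0 to 3 in JMC248. A pseudocount of 5 RPM gave 0 depleted in GR3039 and JMC248 and 2 in JMC205 and JMC207, and a pseudocount of 0.1 RPM gave 4 in GR3035. No filter gave 0 in JMC151 and JMC248, and TMM factors gave 2 in JMC223. The cause was not tested, except that losses without an input were of features left under the read minimum. With the replicate block, members called were 12 (mutant 25 C against mutant 20 C), 0 (mutant against N2 at 20 C) and 12 (mutant against N2 at 25 C), 171 in place of 289 genes were called higher in the mutant at 20 C, and no call of a member's antisense RNA changed. Other scalings of the gene lists, fits without mutant 20 C replicate 3 and ratios without single mutant 20 C libraries were chosen after seeing the data. Members of 11 to 27 counts, and all antisense features but that of C17C3.2, are limited by depth.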
